A study of Mus musculus with 6 samples.

Results

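Centrosome and centriole genes were followed in primary embryonic fibroblasts of the mouse, connective tissue cells cultured directly from embryos, during the first hours in 1 mM hydrogen peroxide (H2O2), an oxidant. The members were the 38 gene names on the array, of 27962 in all, that begin with Cep and a number or that name gamma-, delta- or epsilon-tubulin, a gamma-tubulin complex protein or a centrin, or that read Pcnt, Pcm1, Plk4, Sass6, Cenpj, Nin, Ninl, Odf2, Nedd1, Cdk5rap2, Ofd1 or Stil. Membership was set by name and not by any measured value, though the list was chosen with earlier results of these data known. Ninl matched under no probe of that name, Cep110 is now called Cntrl (centriolin), and Cep27 is now called Haus2, a subunit of the augmin complex of the spindle.

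RNA was measured on 6 single-colour Agilent expression arrays in 3 groups of 2: untreated cells (0 h), and cells kept in 1 mM H2O2 for either 2 h or 4 h, all grown in DMEM with serum. The labels give the 2 arrays of a time as independent experiments, without saying whether embryos, cultures or days differed, so p-values measure only the spread between such experiments. The strain, genotype, sex and age of the embryos, and how many were pooled, are not given in the sources used here. Each of 2 slides held 1 array of every time, always at the same position, so the position on the slide cannot be told apart from the time. Untreated cells were collected at 0 h alone, and the effect of H2O2 cannot be told apart from that of added culture time and handling.

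The centrosome is the main microtubule-organizing centre of an animal cell. It consists of a pair of centrioles, barrels of microtubule triplets, in a matrix called the pericentriolar material, where gamma-tubulin ring complexes start new microtubules. Centrioles are copied once per cell cycle under the kinase PLK4, and in a resting fibroblast the older centriole can become the base of a primary cilium. Several transcripts for these parts peak late in the cell cycle in dividing cells.

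Values are log2 of the processed spot signal minus the array's 75th percentile, called the relative signal, and changes are differences of group means, given ± the standard error from limma (SE, n = 2 in each group). A gene rose or fell when limma's p, adjusted by the Benjamini-Hochberg method over all genes tested, was under 0.05. Each gene is read from its brightest probe, and levels of different probes are not compared. The 75th percentile itself was a signal of 826 and 883 in untreated cells, 675 and 677 at 2 h and 674 and 754 at 4 h. It was highest in untreated cells, so scaling by it raises every change against them. On the 6 arrays between 57.3% and 68.0% of non-control spots lay well above background, with none saturated. The fibroblast markers (Col1a1, Pdgfra, Thy1 and others) were well above background on all 6 arrays for 10 of 10 genes. Of the 38 members 37 were tested, out of 17336 genes, and all 37 were well above background on all 6 arrays. Cep68, which tethers centrioles to each other, was not well above background on any array and has no fold. Replicate arrays of the members differed by a median of 0.07 in untreated cells, 0.09 at 2 h and 0.13 at 4 h.

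After 2 h in H2O2, 3 members rose, 11 fell and 23 did not pass the test. The rises were 8.11% of the 37 members against 23.7% of all genes tested, and the falls were 29.7% against 15.3%. The median member changed by -0.13 when the median of all genes changed by 0.12. After 4 h, 2 members rose, 20 fell and 15 did not pass, which is 5.41% that rose against 24.6% of all genes and 54.1% that fell against 18.4%. The median member then changed by -0.45, against 0.07 for all genes, and 33 of the 37 changes were below 0. Between 2 h and 4 h, 3 members rose and 14 fell, 8.11% against 13.4% of all genes and 37.8% against 16.4%, with medians of -0.26 and -0.08. The comparisons at 2 h and 4 h share the untreated arrays, while 4 h against 2 h uses the treated arrays alone for its difference.

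**Figure D1:**
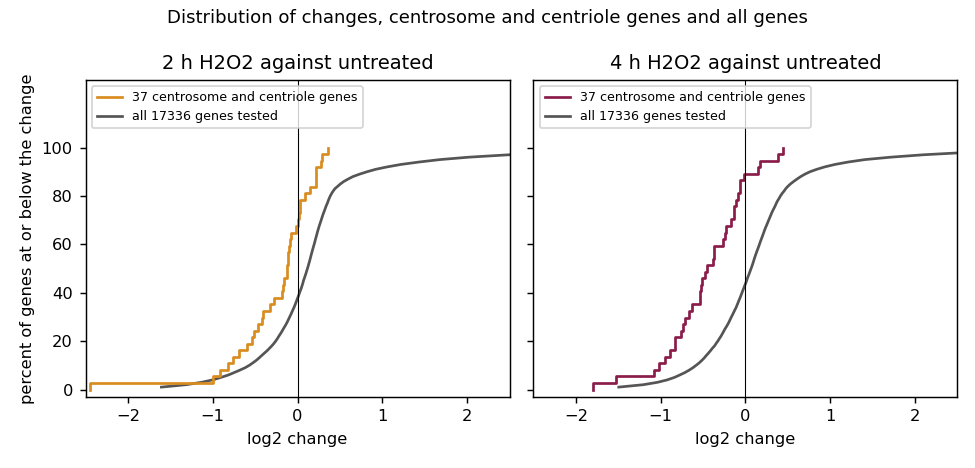
Cumulative distribution of log2 changes against untreated cells (x axis) for the 37 centrosome and centriole genes tested (coloured steps) and for percentiles 1 to 99 of all 17336 genes tested (grey), at 2 h (left) and 4 h (right), with percent of genes on the y axis. The coloured steps lie left of the grey curve over most of the range, with medians of -0.13 and 0.12 at 2 h and of -0.45 and 0.07 at 4 h.

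Relative to the median of all genes, the members stood at -0.24 at 2 h (-0.28 and -0.25 on the 2 slides taken apart), at -0.52 at 4 h (-0.58 and -0.46) and at -0.18 between 2 h and 4 h (-0.24 and -0.18). How the arrays are scaled changes the counts. Over all genes 4105 rose and 2658 fell at 2 h, and 4262 rose and 3186 fell at 4 h. After scaling to the spike-in probes, 1469 rose and 9325 fell at 2 h and 2010 rose and 6191 fell at 4 h, and the median of all genes moved to -0.34 and -0.19. Under that scaling no member rose at either time, 29 fell at 2 h and 28 fell at 4 h. With the normexp background correction and the 75th percentile, 3 fell at 2 h (Tube1, Tubgcp5 and Cep350) and 7 at 4 h (Cenpj, Cep110, Cep55, Ofd1, Pcnt, Tubd1 and Tube1). Over all genes 739 fell at 2 h and 844 fell at 4 h with that correction. The 4 h changes of Cep135, Cep290, Nin and Tubgcp6 were then -0.17, -0.08, -0.17 and -0.21, and those of Cep57 and Sass6 -0.44 and -0.40. The 3 rises at 2 h became 0 without either untreated or either 2 h array, and the 11 falls became 7, 7 and 6 without untreated replicate 1, untreated replicate 2 or 2 h replicate 1. The 20 falls at 4 h became 13 without either untreated array. Over all genes, too, fewer rose and fewer fell in those fits with an array left out. In the fit blocked by slide 6 members rose at 2 h, when 5796 of all genes rose. That fit kept every fall of the main fit and added Stil at 2 h. At 4 h it added the falls of Cdk5rap2, Cep350, Pcm1, Stil and Tubg2 and the rise of Cetn3. Over all genes 3317 fell at 2 h and 3945 fell at 4 h with the block.

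**Figure D2:**
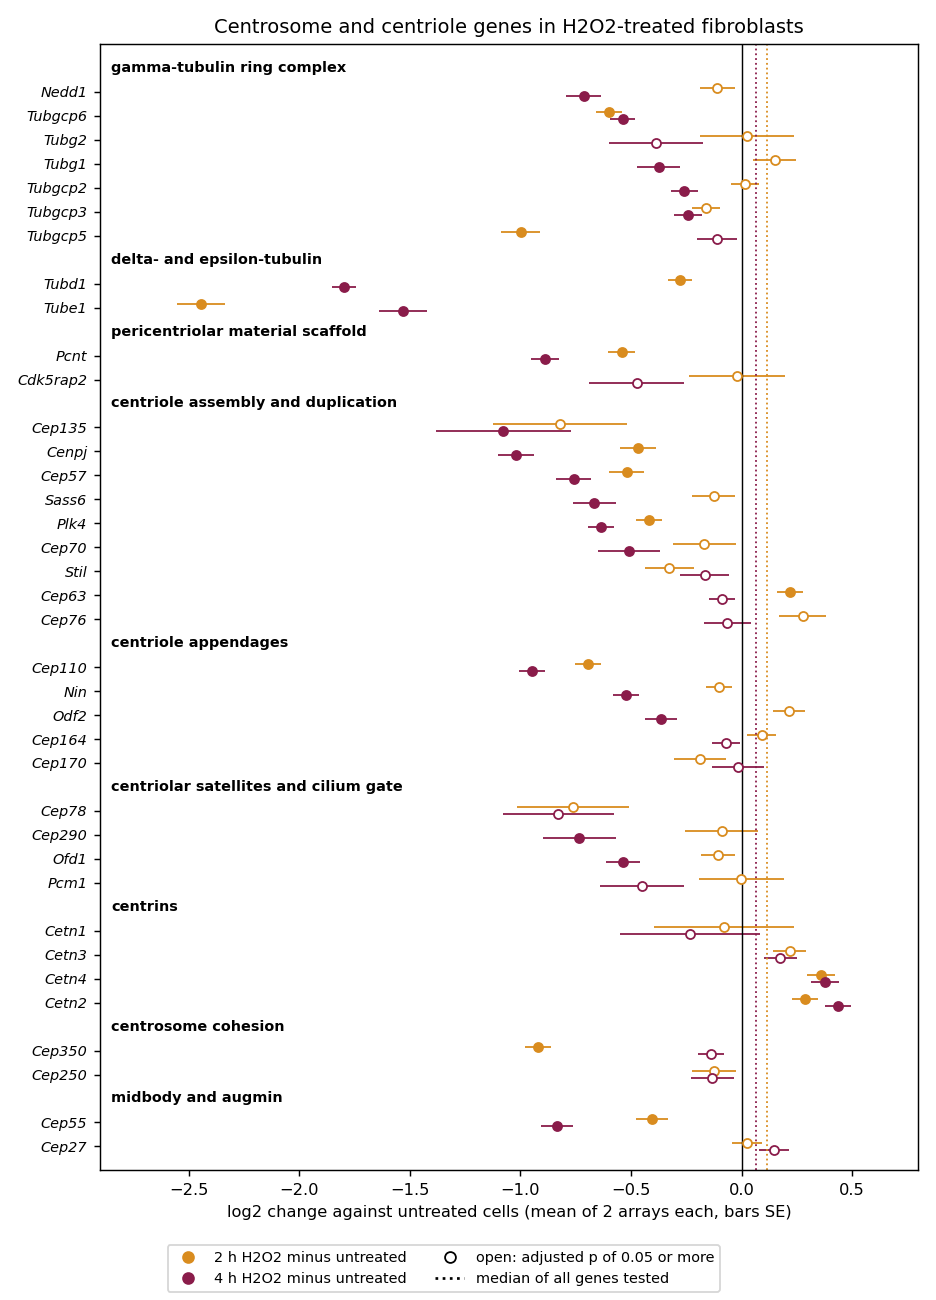
Log2 change of each centrosome and centriole gene tested at 2 h (orange) and 4 h (purple) against untreated cells, grouped by role and ordered by the 4 h change, with SE bars from limma. Filled points passed an adjusted p of 0.05, open points did not, and dotted lines mark the median of all genes (0.12 at 2 h and 0.07 at 4 h). Most filled points lie left of 0, with Cetn2 and Cetn4 on the right at both times and Cep63 on the right at 2 h.

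The widest changes were in the rarer tubulins. Tube1 encodes epsilon-tubulin and Tubd1 delta-tubulin, which in human cells are needed to keep the triplet microtubules of centrioles. Tube1 had a relative signal of -0.72 and -0.78 in untreated cells, -3.25 and -3.14 at 2 h and -2.41 and -2.15 at 4 h. Both treated pairs lay below the untreated pair, and the 4 h arrays lay above the 2 h arrays. It fell by 2.44 ± 0.11 at 2 h (5.44-fold lower, adjusted p = 0.000369) and fell by 1.53 ± 0.11 at 4 h (adjusted p = 0.00119), and rose by 0.91 ± 0.11 from 2 h to 4 h (adjusted p = 0.00651). Tubd1 read 0.74 and 0.69 in untreated cells, 0.43 and 0.45 at 2 h and -1.10 and -1.07 at 4 h. The 3 groups did not overlap and the 4 h pair was far below the others. Tubd1 fell by 0.28 ± 0.05 at 2 h (adjusted p = 0.0182) and fell by 1.80 ± 0.05 at 4 h (3.47-fold lower, adjusted p = 0.000233). Its change between 2 h and 4 h was -1.52 ± 0.05 (adjusted p = 0.00163), so these 2 tubulins moved in opposite directions over that interval. The 2 h fall of Tubd1 missed the threshold whichever of the 4 arrays compared was left out (adjusted p up to 0.101).

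The bases before the start of these genes are shown because the pair had the largest falls at 4 h, though Tubd1 had the smallest of the 11 falls at 2 h. They are the 250 bases upstream of the first start listed by RefSeq (GRCm38.p6), 5′ to 3′ on the strand of the gene, Tube1 at chr10:39133773-39134022 (plus strand) and Tubd1 at chr11:86544741-86544990 (plus strand). Capitals mark CCAAT or its reverse complement ATTGG, the CCAAT box that many promoters of cell cycle genes carry.
Tube1: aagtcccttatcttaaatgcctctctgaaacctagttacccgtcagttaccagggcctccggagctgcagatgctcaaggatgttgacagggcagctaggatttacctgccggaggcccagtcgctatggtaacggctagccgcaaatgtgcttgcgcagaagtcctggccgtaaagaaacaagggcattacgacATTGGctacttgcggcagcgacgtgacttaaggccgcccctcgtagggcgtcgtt
Tubd1: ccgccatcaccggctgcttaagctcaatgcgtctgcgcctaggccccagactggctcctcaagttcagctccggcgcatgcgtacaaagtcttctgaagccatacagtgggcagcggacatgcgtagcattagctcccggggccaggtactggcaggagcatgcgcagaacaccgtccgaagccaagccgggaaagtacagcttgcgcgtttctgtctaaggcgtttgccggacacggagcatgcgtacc
The Tube1 window holds 1 CCAAT box and the Tubd1 window none.

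Most genes of the gamma-tubulin ring complex, which starts microtubules, were lower at 4 h. Of 7 members tested 2 fell at 2 h (28.6%, against 15.3% of all genes) and 5 fell at 4 h (71.4% against 18.4%). Nedd1, the adaptor that brings the ring complex to centrosomes, had a relative signal of -1.32 and -1.28 in untreated cells, -1.47 and -1.34 at 2 h and -2.08 and -1.95 at 4 h. The 4 h arrays lay below the other 4, and Nedd1 changed by -0.11 ± 0.08 at 2 h (adjusted p = 0.32) and fell by 0.71 ± 0.08 at 4 h (1.64-fold lower, adjusted p = 0.00358, with a change of -0.27 and an adjusted p of 0.355 under the normexp correction with the 75th percentile). Tubg1, the main gamma-tubulin of most cells, read 1.98 and 1.86 in untreated cells, 2.16 and 1.98 at 2 h and 1.61 and 1.47 at 4 h. Its 4 h arrays were the lowest of the 6, and it changed by 0.15 ± 0.10 at 2 h (adjusted p = 0.27, and 0.0477 in the fit blocked by slide). After spike-in scaling the 2 h change of Tubg1 was -0.30 and passed as a fall (adjusted p = 0.0313). Tubg1 fell by 0.38 ± 0.10 at 4 h (adjusted p = 0.0356, not past the test whichever of the 4 arrays compared was left out, up to 0.145). Tubg2, the second gamma-tubulin gene, changed by -0.39 ± 0.21 at 4 h (adjusted p = 0.208, 0.0099 with the block, and 0.32 in place of -0.39 under the normexp correction with the 75th percentile).

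Among the ring proteins that hold gamma-tubulin in place, Tubgcp5 stood apart at 2 h. It read -0.82 and -0.75 in untreated cells, -1.88 and -1.69 at 2 h and -0.85 and -0.95 at 4 h. Only the 2 h arrays were low: Tubgcp5 fell by 1.00 ± 0.09 at 2 h (2.00-fold lower, adjusted p = 0.00196), and its 4 h change was -0.11 ± 0.09 (adjusted p = 0.372), with a rise of 0.89 ± 0.09 between the treated times (adjusted p = 0.00459). Tubgcp6 fell by 0.60 ± 0.06 at 2 h (adjusted p = 0.00249) and fell by 0.54 ± 0.06 at 4 h (adjusted p = 0.00334). The remaining falls at 4 h were small, -0.26 ± 0.06 for Tubgcp2 (adjusted p = 0.0282) and -0.24 ± 0.06 for Tubgcp3 (adjusted p = 0.0373). Both missed the threshold when either untreated array was left out, and with the normexp correction under the scaling of the main fit. Tubgcp4, carried by the array under another name, changed by -0.20 ± 0.07 at 4 h (adjusted p = 0.0919).

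**Figure D3:**
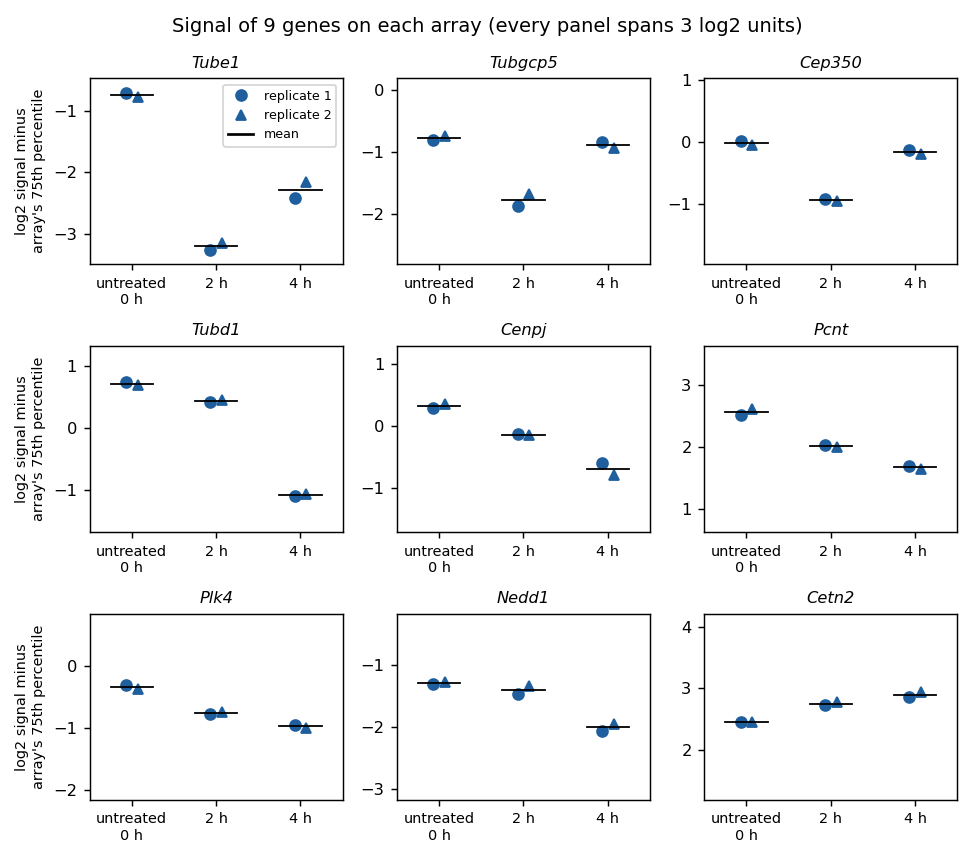
Relative signal (log2 signal minus the array's 75th percentile) of 9 genes on each array, in untreated cells (0 h), at 2 h and at 4 h in H2O2, with circles for replicate 1, triangles for replicate 2 and lines for the mean. Every panel spans 3 log2 units. Tube1, Tubgcp5 and Cep350 were lowest at 2 h, Tubd1, Cenpj, Pcnt, Plk4 and Nedd1 were lowest at 4 h, and Cetn2 was lowest in untreated cells.

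The pericentriolar scaffold was lower through Pcnt. Pcnt encodes pericentrin, the large coiled-coil protein that organizes the matrix and anchors gamma-tubulin. It read 2.51 and 2.60 in untreated cells, 2.03 and 2.00 at 2 h and 1.69 and 1.65 at 4 h. The 3 groups were stepwise lower without overlap. Pcnt fell by 0.54 ± 0.06 at 2 h (adjusted p = 0.00404) and fell by 0.89 ± 0.06 at 4 h (1.85-fold lower, adjusted p = 0.00117), and its second probe gave -0.57 and -0.84. Cdk5rap2, which binds the ring complex to the scaffold, changed by -0.02 ± 0.22 at 2 h and -0.47 ± 0.22 at 4 h (adjusted p = 0.143, 0.0068 in the fit blocked by slide), while its second probe gave 0.23 ± 0.16 at 2 h and fell by 0.76 ± 0.16 at 4 h (adjusted p = 0.316 and 0.0222, each probe tested separately). Cep192, which recruits kinases to the scaffold and is carried by the array under another name, fell by 0.54 ± 0.11 at 4 h (adjusted p = 0.0181).

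Genes that build new centrioles were mainly lower at 4 h. Of 9 tested, 1 rose (11.1%, against 23.7% of all genes) and 3 fell (33.3% against 15.3%) at 2 h. At 4 h none rose and 6 fell (66.7% against 18.4%). Cenpj, which delivers tubulin to the growing centriole, read 0.30 and 0.37 in untreated cells, -0.12 and -0.15 at 2 h and -0.59 and -0.78 at 4 h. The groups did not overlap. Cenpj fell by 0.47 ± 0.08 at 2 h (adjusted p = 0.0136, not past the test whichever of the 4 arrays compared was left out, up to 0.0737) and fell by 1.02 ± 0.08 at 4 h (2.03-fold lower, adjusted p = 0.00162). Plk4, the kinase that starts duplication, read -0.32 and -0.37 in untreated cells, -0.78 and -0.74 at 2 h and -0.95 and -1.01 at 4 h. Each treated pair lay below the untreated pair. Plk4 fell by 0.42 ± 0.06 at 2 h (adjusted p = 0.00768, up to 0.0509 without untreated replicate 1 or 2 h replicate 1) and fell by 0.63 ± 0.06 at 4 h (1.55-fold lower, adjusted p = 0.00234). Its second probe gave -0.11 ± 0.13 at 2 h (adjusted p = 0.553) and -0.57 ± 0.13 at 4 h (adjusted p = 0.0258).

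Sass6, whose protein forms the cartwheel at the start of a new centriole, read -0.43 and -0.52 in untreated cells, -0.61 and -0.60 at 2 h and -1.02 and -1.26 at 4 h. Its 4 h arrays were the lowest, and it fell by 0.67 ± 0.10 at 4 h (adjusted p = 0.00769). Cep57, a protein around the centriole base, fell by 0.52 ± 0.08 at 2 h (adjusted p = 0.00938, up to 0.0543 without untreated replicate 2 or 2 h replicate 1) and fell by 0.76 ± 0.08 at 4 h (adjusted p = 0.00313). Cep135, which joins the cartwheel to the centriole wall, had replicates of -4.08 and -3.20 at 4 h against -2.68 and -2.45 in untreated cells. Those groups did not overlap, but its fall of 1.08 ± 0.30 (adjusted p = 0.045) was not past the test without either untreated or either 2 h array (adjusted p up to 0.153). Stil, the partner that links PLK4 and SASS6, changed by -0.33 ± 0.11 at 2 h (adjusted p = 0.0769) and -0.17 ± 0.11 at 4 h (adjusted p = 0.285), which became 0.0109 and 0.0405 in the fit blocked by slide. Its second probe fell by 0.48 ± 0.10 at 2 h and fell by 0.35 ± 0.10 at 4 h (adjusted p = 0.0226 and 0.0477, each probe tested separately). The other probes of Cep70 gave -1.12 and -0.44 at 4 h (adjusted p = 0.00756 and 0.0229, each probe tested separately). On its brightest probe Cep70 fell by 0.51 ± 0.14 at 4 h (adjusted p = 0.0436). That fall missed the threshold when either untreated array was left out, and with the normexp correction under the scaling of the main fit. Cep152, the receptor for PLK4, had no matching probe and is not analysed here.

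Cep63 was the member of the assembly group that rose. Its relative signal was 3.004 and 2.94 in untreated cells, 3.17 and 3.21 at 2 h and 2.91 and 2.86 at 4 h. The 2 h arrays were the highest of the 6. The rise of 0.22 ± 0.06 at 2 h (adjusted p = 0.0433) passed under no other scaling and missed the threshold whichever array was left out (adjusted p up to 0.198). The change turned to -0.12 without scaling and to -0.24 after spike-in scaling, where it passed as a fall (adjusted p = 0.0179). Cep76, which in human cells limits repeated duplication, changed by 0.28 ± 0.11 at 2 h (adjusted p = 0.103).

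Of the appendages, the spokes at the end of the older centriole, 5 members were tested. At 2 h 1 fell (20%, near the 15.3% of all genes) and at 4 h 3 fell (60% against 18.4%). Cep110 (centriolin) had a relative signal of -0.66 and -0.61 in untreated cells, -1.34 and -1.32 at 2 h and -1.62 and -1.54 at 4 h. It was stepwise lower without overlap, and it fell by 0.69 ± 0.06 at 2 h (adjusted p = 0.00173) and fell by 0.95 ± 0.06 at 4 h (1.93-fold lower, adjusted p = 0.000919). Its other tested probes gave 0.28 and -0.29 at 2 h (adjusted p = 0.0849 and 0.041, each probe tested separately) and 0.04 and -0.20 at 4 h (adjusted p = 0.782 and 0.102), so 2 of 3 probes fell at 2 h and 1 of 3 at 4 h. Nin (ninein, which anchors microtubules at subdistal appendages) changed by -0.10 ± 0.06 at 2 h (adjusted p = 0.228) and fell by 0.52 ± 0.06 at 4 h (adjusted p = 0.00367).

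Odf2, the scaffold on which appendages form, read 1.74 and 1.66 in untreated cells, 1.92 and 1.90 at 2 h and 1.41 and 1.27 at 4 h. The 2 h arrays were highest and the 4 h arrays lowest. Its 2 h change of 0.21 ± 0.07 did not pass (adjusted p = 0.0774, and 0.036 in the fit blocked by slide). After spike-in scaling the 2 h change of Odf2 was -0.24 and passed as a fall (adjusted p = 0.0259). At 4 h it fell by 0.36 ± 0.07 (adjusted p = 0.0173, up to 0.088 without either untreated array or 4 h replicate 2). From 2 h to 4 h Odf2 fell by 0.58 ± 0.07 (adjusted p = 0.00738). Cep164, the docking protein of distal appendages, and Cep170, a subdistal appendage protein, passed no test.

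Centriolar satellites are granules that ferry proteins to the centrosome and cilium. None of 4 satellite and cilium gate members passed at 2 h, and 2 fell at 4 h (50%, against 18.4% of all genes). Ofd1, a satellite protein that also caps centrioles, read 1.58 and 1.67 in untreated cells, 1.48 and 1.55 at 2 h and 1.02 and 1.15 at 4 h. The 4 h arrays were the lowest, and Ofd1 fell by 0.54 ± 0.08 at 4 h (adjusted p = 0.00709). Cep290, a gatekeeper at the base of the cilium, fell by 0.73 ± 0.16 at 4 h (adjusted p = 0.0241, not past the test whichever of the 4 arrays compared was left out, up to 0.0987). Pcm1, the satellite scaffold, changed by -0.45 ± 0.19 at 4 h on its brightest probe (adjusted p = 0.123, 0.0418 in the fit blocked by slide), while its other probes gave -0.54 and -0.53 (adjusted p = 0.00576 and 0.0052, each probe tested separately). Cep78 changed by -0.76 ± 0.25 at 2 h and -0.83 ± 0.25 at 4 h (adjusted p = 0.0725 and 0.0552).

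The members that rose at both times were a pair of the 4 centrins. Centrins are small calcium-binding proteins of the centriole lumen, and CETN2 also takes part in DNA damage recognition in nucleotide excision repair. Of 4 members 2 rose at 2 h and 2 at 4 h, Cetn2 and Cetn4 each time (50%, against 23.7% and 24.6% of all genes). The centrin medians were 0.25 and 0.28. Cetn2 had a relative signal of 2.46 and 2.46 in untreated cells, 2.73 and 2.78 at 2 h and 2.86 and 2.94 at 4 h. The groups did not overlap. Cetn2 rose by 0.29 ± 0.06 at 2 h (adjusted p = 0.02, with changes of -0.17 after spike-in scaling and -0.05 without scaling) and by 0.44 ± 0.06 at 4 h (1.35-fold, adjusted p = 0.00595, with a change of 0.18 not past the test after spike-in scaling). Cetn4 read -2.08 and -2.02 in untreated cells, -1.71 and -1.67 at 2 h and -1.63 and -1.72 at 4 h. All treated arrays lay above both untreated ones. Cetn4 rose by 0.36 ± 0.06 at 2 h (adjusted p = 0.0136, with a change of -0.09 after spike-in scaling) and by 0.38 ± 0.06 at 4 h (adjusted p = 0.0108, with a change of 0.12 not past the test after spike-in scaling). The 2 h rises missed the threshold whichever of the 4 arrays compared was left out (adjusted p up to 0.101 for Cetn2 and 0.0761 for Cetn4), and the 4 h rise of Cetn4 missed it without untreated replicate 1 (0.0637). Cetn3 changed by 0.22 ± 0.07 at 2 h (adjusted p = 0.078) and 0.17 ± 0.07 at 4 h (adjusted p = 0.126), which became 0.0227 and 0.0352 in the fit blocked by slide. After spike-in scaling its changes were -0.24 at 2 h and -0.09 at 4 h, neither past the test. Cetn1, the centrin of the testis, passed no test.

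The windows before Cetn2 and Cetn4, the members that rose at both times, are shown with that of their relative Cetn3, which passed at neither, again as 250 bases upstream of the first RefSeq start (GRCm38.p6), 5′ to 3′ on the gene strand, with CCAAT or ATTGG in capitals. They lie at chrX:72918345-72918594 (Cetn2, minus strand), chr13:81782997-81783246 (Cetn3, plus strand) and chr3:37312447-37312696 (Cetn4, minus strand).
Cetn2: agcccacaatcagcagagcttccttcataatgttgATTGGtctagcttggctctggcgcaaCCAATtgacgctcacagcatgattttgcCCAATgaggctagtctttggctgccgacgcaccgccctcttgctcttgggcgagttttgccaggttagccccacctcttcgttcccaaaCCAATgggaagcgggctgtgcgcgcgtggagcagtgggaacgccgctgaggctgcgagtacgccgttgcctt
Cetn3: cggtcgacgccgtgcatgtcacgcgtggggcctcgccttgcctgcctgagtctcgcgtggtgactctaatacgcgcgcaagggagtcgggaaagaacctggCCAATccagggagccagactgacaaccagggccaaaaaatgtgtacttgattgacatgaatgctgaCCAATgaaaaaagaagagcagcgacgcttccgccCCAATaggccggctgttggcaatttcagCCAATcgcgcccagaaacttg
Cetn4: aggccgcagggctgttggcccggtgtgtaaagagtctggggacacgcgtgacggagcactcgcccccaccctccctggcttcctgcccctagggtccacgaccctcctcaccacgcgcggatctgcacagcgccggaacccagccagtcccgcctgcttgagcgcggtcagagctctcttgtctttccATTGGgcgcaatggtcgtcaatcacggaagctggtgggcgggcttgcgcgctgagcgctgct
The Cetn2 and Cetn3 windows each hold 4 CCAAT boxes, a number reached by 0.92% of 27025 windows, each of another gene, and the Cetn4 window holds 1. Of the 30 tested members with a window, 9 hold at least 1 CCAAT box (30.0%, against 34.5% of all windows). The CHR element TTTGAA was found in 3 (10.0% against 16.3%), an E2F site (TTTCGCGC, TTTGGCGC or TTTCCCGC) in 1 (3.3% against 1.6%), the NRF1 site in 4 (13.3% against 3.9%) and the ETS site CCGGAAGT in 1 (3.3% against 2.9%). Both strands were searched, letters of different motifs may overlap, and a match is a run of letters only.

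Centrosome cohesion and centriole anchoring were represented by Cep250 and Cep350. Cep350, a protein that anchors microtubules at centrosomes, read 0.01 and -0.04 in untreated cells, -0.92 and -0.95 at 2 h and -0.13 and -0.19 at 4 h. As with Tubgcp5, the 2 h arrays were the low ones. Cep350 fell by 0.92 ± 0.06 at 2 h (1.89-fold lower, adjusted p = 0.000818), had a 4 h change of -0.14 ± 0.06 (adjusted p = 0.119, 0.0495 in the fit blocked by slide) and rose by 0.78 ± 0.06 between the treated times (adjusted p = 0.00269). Tube1, Tubgcp5 and Cep350 were the 3 members whose rise between 2 h and 4 h passed the test. Cep250, the root of the fibre that links centrosomes, passed no test.

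Cep55, named for the centrosome but best known for the last cut between daughter cells at the midbody, had a relative signal of 0.26 and 0.26 in untreated cells, -0.21 and -0.08 at 2 h and -0.61 and -0.53 at 4 h. The groups were stepwise lower without overlap. Cep55 fell by 0.41 ± 0.07 at 2 h (adjusted p = 0.0139, up to 0.0707 without either untreated array or 2 h replicate 1) and fell by 0.83 ± 0.07 at 4 h (1.78-fold lower, adjusted p = 0.00189). Cep27, the augmin subunit, passed no test.

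Between 2 h and 4 h the largest falls were those of Tubd1, Cep290 (-0.64 ± 0.16, adjusted p = 0.0457), Nedd1 (-0.60 ± 0.08, adjusted p = 0.00812), Odf2 and Cenpj (-0.55 ± 0.08, adjusted p = 0.0112). The 14 falls became 4 without 2 h replicate 1, 5 without 2 h replicate 2, 7 without 4 h replicate 1 and 8 without 4 h replicate 2, and 1 with the normexp correction and the 75th percentile. Whichever array was left out, 3 members rose, and the calls of Tubd1, Nedd1, Odf2, Tube1, Tubgcp5 and Cep350 passed.

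Probes of a gene did not always tell the same story. For 20 members 2 or more probes were tested, and their changes differed in sign for 8 genes at 2 h and for 4 genes at 4 h. They were Cdk5rap2, Cep110, Cep164, Cep250, Cep70, Cep76, Odf2 and Sass6 at 2 h, and Cep110, Cep164, Cep170 and Odf2 at 4 h. For Odf2 the probe designed on a RIKEN cDNA gave -0.65 ± 0.07 at 2 h and 0.24 ± 0.07 at 4 h, while the other 3 probes gave between -0.05 and 0.21 at 2 h and between -0.38 and -0.36 at 4 h. Cep55 had a second probe, also from a RIKEN cDNA, with -1.71 ± 0.13 at 2 h and -1.10 ± 0.13 at 4 h, lower at 2 h than the main probe. Cep290 had a second probe that was low at 2 h (-0.63 ± 0.10, adjusted p = 0.0107) and not past the test at 4 h (-0.06 ± 0.10). These probes were each lower at 2 h than at 4 h, the order also seen for Tube1, Tubgcp5 and Cep350, and they were picked out after their values were seen. The second probes of Nedd1 (-0.81 at 4 h), Sass6 (-0.57), Plk4 (-0.57) and Cetn2 (0.44) were close to the main ones at 4 h.

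**Figure D4:**
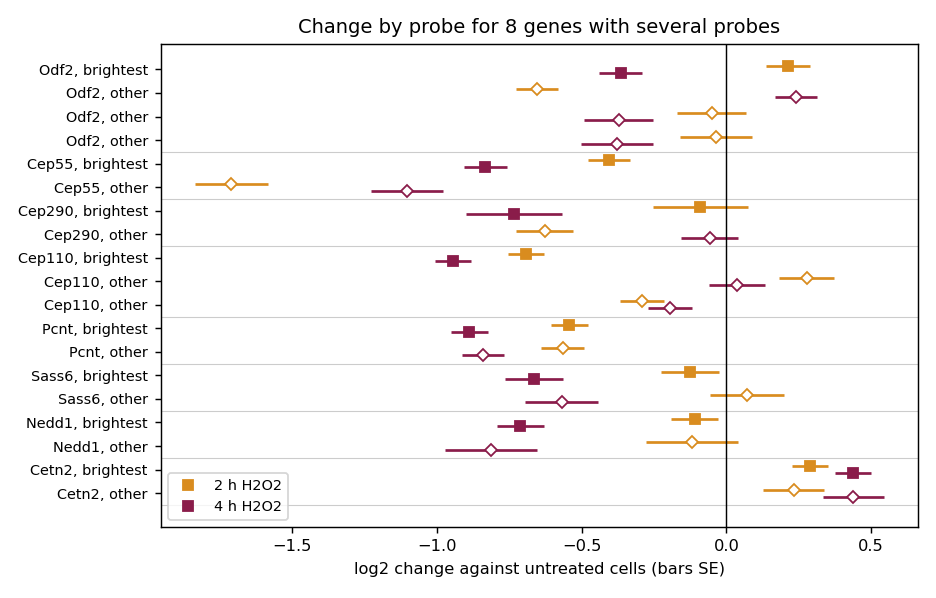
Log2 change against untreated cells at 2 h (orange) and 4 h (purple) for each tested probe of 8 genes, with SE bars. Filled squares are the brightest probe, which stands for the gene, and open diamonds are the others. Probes of Pcnt, Nedd1 and Cetn2 lie close together, whereas Odf2, Cep55, Cep290 and Cep110 have a probe that differs.

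Genes of the organelle that the array carries under other names were counted apart from the members. Of 21 Cep-type and related symbols looked for through RefSeq, Cep152 and Cep215 matched no probe, and Cep215 is another name of the member Cdk5rap2. The other 19 had a probe and all 19 were tested. Of these 1 rose (5.26%, against 23.7% of all genes) and 5 fell (26.3% against 15.3%) at 2 h. At 4 h 2 rose (10.5% against 24.6%) and 11 fell (57.9% against 18.4%). The medians were -0.11 at 2 h and -0.43 at 4 h. At 4 h the satellite protein gene Cep131 fell by 1.43 ± 0.11 (adjusted p = 0.00138) and Cep72, also of satellites, fell by 1.05 ± 0.07 (adjusted p = 0.00114). Cep295, needed for centrioles to become centrosomes, fell by 0.85 ± 0.10 at 2 h and fell by 1.00 ± 0.10 at 4 h (adjusted p = 0.00404 and 0.00252). Ninl fell by 1.71 ± 0.24 at 2 h (adjusted p = 0.00706). Cep97, which caps centrioles, was the gene that rose at 2 h, by 0.37 ± 0.10 (adjusted p = 0.0446). The rises at 4 h were those of Cep170b (0.67 ± 0.18, adjusted p = 0.0383) and Cep97 (0.37 ± 0.10, adjusted p = 0.042).

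Of 94 further tested genes in lists of organelle parts, 12 rose (12.8%, against 23.7% of all genes) and 20 fell (21.3% against 15.3%) at 2 h. At 4 h 9 rose (9.57% against 24.6%) and 36 fell (38.3% against 18.4%), and the medians were 0.06 and -0.12. All 4 tested genes of the linker between centrosomes fell at 4 h, led by Crocc (rootletin, -0.93 ± 0.07, adjusted p = 0.00129) and the kinase Nek2 (-0.81 ± 0.06, adjusted p = 0.00126). Among 11 further assembly genes 5 fell at each time (45.45%, against 15.3% and 18.4% of all genes). Poc5 fell by 1.33 ± 0.07 at 2 h and fell by 1.20 ± 0.07 at 4 h. Of 19 genes of intraflagellar transport, the traffic that builds cilia, 9 fell at 4 h (47.4%, against 18.4% of all genes) and 2 rose (10.5% against 24.6%). Ttc30b changed by -1.32 ± 0.08, Ift81 by -0.83 ± 0.06 and Ift20 by 0.66 ± 0.06 at 4 h (adjusted p = 0.000809, 0.00109 and 0.00193). The kinases of the centrosome split: Plk1 and Aurka, which drive mitosis, fell by 1.48 ± 0.06 and fell by 1.05 ± 0.05 at 4 h (adjusted p = 0.000385 and 0.00062), while Plk3, a stress-responsive relative, rose by 1.12 ± 0.09 at 2 h and by 0.75 ± 0.09 at 4 h (adjusted p = 0.00142 and 0.00418). Pde4dip (myomegalin, a relative of Cdk5rap2) rose by 1.95 ± 0.06 at 2 h and by 2.17 ± 0.06 at 4 h (adjusted p = 0.000219 and 0.000233). Of 11 alpha- and beta-tubulins, the bulk of cellular microtubules, 1 rose at 2 h (Tuba1c, 0.25 ± 0.05, adjusted p = 0.02) and 1 fell at 4 h (Tubb3, -0.30 ± 0.07, adjusted p = 0.0221). Each is 9.09% of the list, against 23.7% of all genes that rose at 2 h and 18.4% that fell at 4 h.

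**Figure D5:**
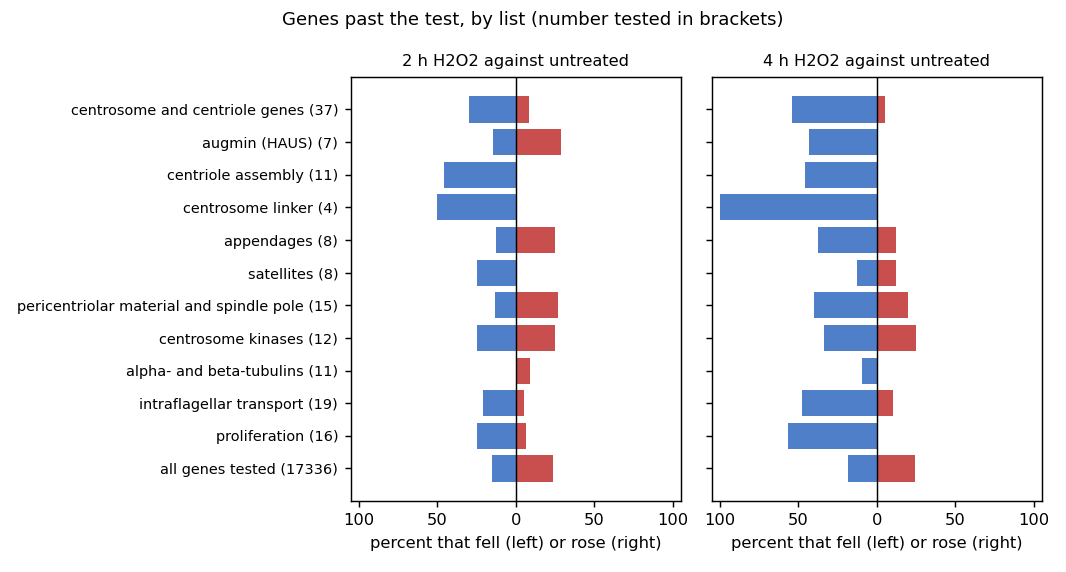
Percent of the tested genes of each list that fell (blue, left) or rose (red, right) at 2 h and at 4 h in H2O2 against untreated cells, with the number tested in brackets. The 37 centrosome and centriole genes (29.7% and 54.1% that fell) stand at the top and all 17336 genes tested (15.3% and 18.4%) at the bottom, and linker and proliferation genes also fell often at 4 h.

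Markers of dividing cells were also lower at 4 h. Of 16 proliferation genes 1 rose and 4 fell at 2 h (25% that fell, against 15.3% of all genes), with a median of -0.02. At 4 h none rose and 9 fell (56.2% against 18.4%), among them Mki67 (-1.41 ± 0.06), Cenpf (-1.28 ± 0.06) and Bub1b (-0.81 ± 0.06) at 4 h (adjusted p = 0.000404, 0.000518 and 0.00133), and the median was -0.36. The part of these genes in the result was not tested. In bulk RNA, fewer cells of a type and less RNA per cell cannot be told apart. Markers of multiciliated cells, which make many centrioles, were well above background on all 6 arrays for 3 of 7 genes, and Dnahc5 on none. Their summed signal, in multiples of the array's 75th percentile, was 0.89 and 0.94 at 2 h and 0.73 and 0.67 at 4 h, against 0.41 and 0.39 in untreated cells. Markers of male germ cells were above background on all arrays for 3 of 8 genes and Sycp3 on none, with sums of 0.69 and 0.84 at 2 h and 0.58 and 0.60 at 4 h, against 0.52 and 0.56 in untreated cells. A higher sum was not particular to these lists. Endothelial markers, above background on all arrays for 3 of 8 genes, summed to 1.10 and 0.99 at 2 h. Their sums were 0.96 and 0.98 at 4 h, against 0.47 and 0.54 in untreated cells. The part of these cell types in the result was not tested.

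Gene length is a property that the choice of members did not use. Over the 37 members, which share the same 6 arrays, the log2 change and the genomic span had a Spearman coefficient of -0.27 at 2 h and -0.20 at 4 h. Over the 13262 tested genes with a span it was -0.12 at 2 h and -0.15 at 4 h. On their brightest probe 12 members passed no test in the main fit. They were Cdk5rap2, Cep164, Cep170, Cep250, Cep27, Cep76, Cep78, Cetn1, Cetn3, Pcm1, Stil and Tubg2. In the fit blocked by slide Cdk5rap2, Cep76, Cetn3, Pcm1, Stil and Tubg2 passed in some comparison.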

How the data were processed

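The deposited scanner files hold fluorescence intensity per spot, extracted by the authors with Feature Extraction 9.5.3.1, per the file headers. The series value table, also deposited by the authors, holds intensity on a linear scale and equals the processed signal within 0.0005. From the 43379 non-control spots (of 45018), the log2 processed signal minus the 75th percentile of its array was used. Spots with an outlier flag were dropped, repeated probes averaged, and the brightest probe stood for a gene name. A gene was tested if some group had it well above background on both of its arrays. The 6 arrays were fitted together in limma 3.58.1 (R 4.3.3, data.table version 1.17.8), with 3 residual and 1.63 prior degrees of freedom and Benjamini-Hochberg adjustment over 17336 genes. The script was tested on simulated data. The number of arrays limits the precision.

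Promoter windows, current symbols and gene spans came from RefSeq tables (GRCm38.p6), in which 31 of 38 members had a window. Arrays with the same replicate number share a slide, per the file headers, and their deviations from the group means correlated across genes (r = 0.247 for 2 h and untreated, 0.195 for 4 h and untreated and 0.241 for 4 h and 2 h), so a fit with the slide as a block is given where it changes a call. The alternatives were 6 scalings and background corrections, outlier flags kept, 2 filters on dim probes, 2 rules for several probes, the block, and each array left out. The members, lists and tests were chosen with earlier results of these data known. Genes given with values were the 8 largest rises and falls past the test at each time, the 5 largest between times, and members of known role; the other members, and the genes of other lists, were named after their values were seen.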

Additional observations from a re-analysis of the deposited data

Results flagged for a closer look

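The 27 genes run through every alternative were compared directly between the treated times (limma, Benjamini-Hochberg adjusted p under 0.05 over all genes). For 16 of them the change at 4 h differed from that at 2 h. Some of the 27 were chosen because they passed this same comparison, so the count of 16 was partly fixed by that choice. Over all genes tested 13.4% rose and 16.4% fell between times. Of the other members, Tubgcp2 also passed (-0.28 ± 0.06, adjusted p = 0.0321). The change at 4 h minus that at 2 h was positive for Tube1 (0.91), Tubgcp5 (0.89) and Cep350 (0.78), whose 2 h arrays were the lowest. It was negative and largest for Tubd1 (-1.52), a delta-tubulin gene that was lowest at 4 h. It was also negative for Cep290 (-0.64), Nedd1 (-0.60), Odf2 (-0.58), Cenpj (-0.55), Sass6 (-0.54) and Tubg1 (-0.53). Smaller negative differences were those of Ofd1 (-0.43), Cep55 (-0.43), Nin (-0.42), Pcnt (-0.35), Cep63 (-0.31) and Cep110 (-0.25). Of these 16 calls, 6 passed whichever array was left out (Cep350, Nedd1, Odf2, Tubd1, Tube1 and Tubgcp5), and the highest adjusted p with 1 array left out was 0.169, for Cep290. The other probes tested for Odf2, Cep55 and Cep290 gave 4 h minus 2 h changes of another size or sign, 0.90 for the RIKEN cDNA probe of Odf2 and 0.61 and 0.57 for the second probes of Cep55 and Cep290. With the slide as a block 6 more members passed between times: Cdk5rap2, Cep57, Cep70, Cep76, Plk4 and Tubg2.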

How the results depend on the processing

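The members stayed below the median of all genes in each comparison under every alternative run. At 2 h their distance of -0.24 was -0.20 after quantile normalization, -0.14 with normexp and quantile normalization and -0.33 with no filter on dim probes, and -0.28 to -0.24 with 1 array left out. At 4 h the distance of -0.52 was -0.38 with normexp and the 75th percentile, -0.37 with normexp and quantile normalization and -0.64 with no filter, and -0.56 to -0.41 with 1 array left out. Between 2 h and 4 h the distance of -0.18 was -0.12 with normexp and the 75th percentile, -0.27 with no filter and -0.0808 with the mean of the probes, and -0.22 to -0.13 with 1 array left out.

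The 3 rises at 2 h became 1 after quantile normalization, with normexp and quantile normalization and with the mean of the probes, 0 after median centring, no scaling, normexp with the 75th percentile, spike-in scaling and no filter, and 6 with the slide as a block. Over all genes the 4105 rises at 2 h became 2594 after quantile normalization, 1469 after spike-in scaling and 5796 with the block. The 11 falls at 2 h became 18 (median centring), 21 (no scaling), 3 (normexp with the 75th percentile) and 29 (spike-in scaling). The 2658 falls over all genes became 3855, 5740, 739 and 9325 under the same settings, in that order. The 2 rises at 4 h became 1 (median centring and normexp with the 75th percentile) and 0 (no scaling and spike-in scaling), and the 20 falls became 7 (normexp with the 75th percentile) and 13 (no filter). From 2 h to 4 h the 3 rises became 6 after spike-in scaling, and the 14 falls became 8 (median centring and no scaling), 1 (normexp with the 75th percentile), 7 (spike-in scaling) and 5 (no filter). With 1 array left out the counts ran from 0 to 2 rises and 6 to 13 falls at 2 h, from 1 to 2 rises and 13 to 17 falls at 4 h, and from 3 to 3 rises and 4 to 11 falls between times. Over all genes, too, fewer rose and fewer fell in every comparison with 1 array left out. The slide block ended no call among the genes named. Spike-in scaling rests on 7 probes and moved the median of all genes to -0.34 at 2 h. Over all genes 2321 rose and 2848 fell between times, and 3938 rose and 1275 fell under that scaling. The falls between times over all genes were 1761 (median centring), 1597 (no scaling), 242 (normexp with the 75th percentile) and 1084 (no filter). At 4 h the falls over all genes were 844 (normexp with the 75th percentile) and 1909 (no filter), against 3186 in the main fit. The cause of the other differences was not tested.

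The 27 genes run through every alternative are called named here. They leave out Cep70, Tubgcp2 and Tubgcp3, which fell at 4 h. Among 81 changes of the 27 genes, 17 turned sign under an alternative other than a left-out array and 7 with 1 array left out. Where the main or the other value had passed the test, signs turned for Cep63 at 2 h (-0.12 unscaled, -0.24 scaled to the spike-ins), Cetn2 at 2 h (-0.0482 and -0.17), and, scaled to the spike-ins at 2 h, Cetn4 (-0.0941), Odf2 (-0.24) and Tubg1 (-0.30). The 4 h minus 2 h change of Cep55 was 0.0895 with the mean of the probes. Changes that passed on neither side and turned include Cetn3 (-0.12 unscaled and -0.24 scaled to the spike-ins at 2 h, -0.0854 under both at 4 h) and, with normexp and the 75th percentile at 4 h, Stil (0.10) and Tubg2 (0.32). Of 14 named calls at 2 h 6 passed whichever array was left out and 3 under all 6 scalings and background corrections, of 19 at 4 h 14 and 7, and of 16 between times 6 and 3. The widest SEs among the members were 0.32 for Cetn1, 0.30 for Cep135 and 0.25 for Cep78, and Cep68, not well above background on any array, has no value.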
